A study of Mus musculus with 15 samples.

Results

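Protocadherins are cell-surface adhesion proteins of the cadherin superfamily. The clustered ones are encoded in gene arrays, whereas the genes described here lie outside those arrays. The 9 genes are Pcdh1, Pcdh7, Pcdh8, Pcdh9, Pcdh10, Pcdh17, Pcdh18, Pcdh19 and Pcdh20. They were found by their symbol among the 36814 genes of the deposited table, and all 9 were found. Pcdh8, Pcdh9, Pcdh17 and Pcdh20 lie on chromosome 14, Pcdh10 and Pcdh18 on chromosome 3, and the other 3 on a chromosome each. All 9 also passed the filter on low counts and were among the 14340 genes tested.

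Non-clustered protocadherins hold neurons and axons of a kind together by weak binding between like molecules on adjoining cells, and they signal to the actin skeleton. Their delta-1 subfamily (Pcdh1, Pcdh7 and Pcdh9 here) carries a short motif for protein phosphatase 1 in its cytoplasmic tail. Several members of the delta-2 subfamily (Pcdh8, Pcdh10, Pcdh17, Pcdh18 and Pcdh19 here) bind the WAVE regulatory complex, which starts branched actin growth, and thereby affect axon growth and synapses. Pcdh20 is usually put in neither. In the spinal cord, classical cadherins are known to sort motor neurons into pools, where a pool comprises all motor neurons innervating 1 muscle.

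The study compared 5 pools of wild-type mice at postnatal day 6, with 3 libraries each. The pools supplied the intrinsic foot muscles (IF), gastrocnemius (GS), peroneus longus (PL), tibialis anterior (TA) and extensor digitorum longus (EDL), and all of them had the same treatment. The retrograde tracer CTB-Alexa 555 had been injected into the muscle at day 4, and labelled cells were cut by laser from 12 µm sections of spinal cord. A library held RNA of 30 to 40 cells pooled from 2 to 5 animals per the labels, which do not say whether pools shared animals, so the p-values measure the spread between such pooled libraries.

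Gene counts summed to between 4417114 and 8488368 per library. Levels are given as TMM-scaled CPM, the counts of a gene per 1000000 counts after scaling between libraries, or as the RPKM that the authors deposited. RPKM is divided by gene length and so allows levels of different genes to be compared, but it lacks the TMM scaling between libraries. The TMM factors were 1.19 to 1.21 in IF, 0.710 in PL 2 and 0.670 in PL 3, so pools compare differently in RPKM. PL 2 and PL 3 stood apart from the 13 other libraries: 25.7% and 29.2% of the tested genes were at 0 in them, against 0.732% to 13.7% elsewhere. The fewest genes at 0 were seen in IF 1 (0.732%), IF 2 (1.21%) and IF 3 (1.38%), with GS 1 next at 1.55%. IF replicates also resembled each other most. Their lowest rank correlation was 0.953 (IF 2 with IF 3), while the highest outside IF was 0.89 (EDL 2 with EDL 3). The part of this likeness in the IF results was not tested. Motor neuron identity was checked with 5 of 6 fixed markers (Chat, Slc5a7, Isl2, Mnx1 and Prph). Their summed level ran from 1611 to 3577 CPM, with 3463 to 3577 CPM in PL and 1611 to 2548 CPM in the 12 other libraries, and each was above 0 in every library. Astrocyte transcripts were present in every library, at 855 to 3142 CPM for 6 markers, and a bulk library cannot tell fewer cells of a type from less RNA per cell.

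In the captured material, Pcdh9, Pcdh7, Pcdh17, Pcdh10 and Pcdh1 held on average 90.7% of the summed RPKM of the 9 genes over the 15 libraries. The medians over 15 libraries were 36.8 RPKM for Pcdh9, 33.9 for Pcdh7, 25.1 for Pcdh17, 12.8 for Pcdh10, 10.6 for Pcdh1 and 6.90 for Pcdh19. These 6 genes stood above 74.2% or more of the tested genes by median RPKM, and Pcdh9 above 95.7%. Pcdh8, Pcdh20 and Pcdh18 had medians of 0.909, 0.843 and 0.840 RPKM, above 30.3%, 29.3% and 29.2% of the tested genes. The summed RPKM of all 9 averaged 132.8 ± 5.09 RPKM in IF, 144 ± 23.8 in GS, 142 ± 12.5 in PL, 122 ± 17.9 in TA and 150.0 ± 13.8 in EDL (SD, n = 3 each). The libraries of every pair of pools overlapped in this sum except IF and EDL, with 127 to 136 RPKM in IF and 138 to 165 RPKM in EDL.

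**Figure D1:**
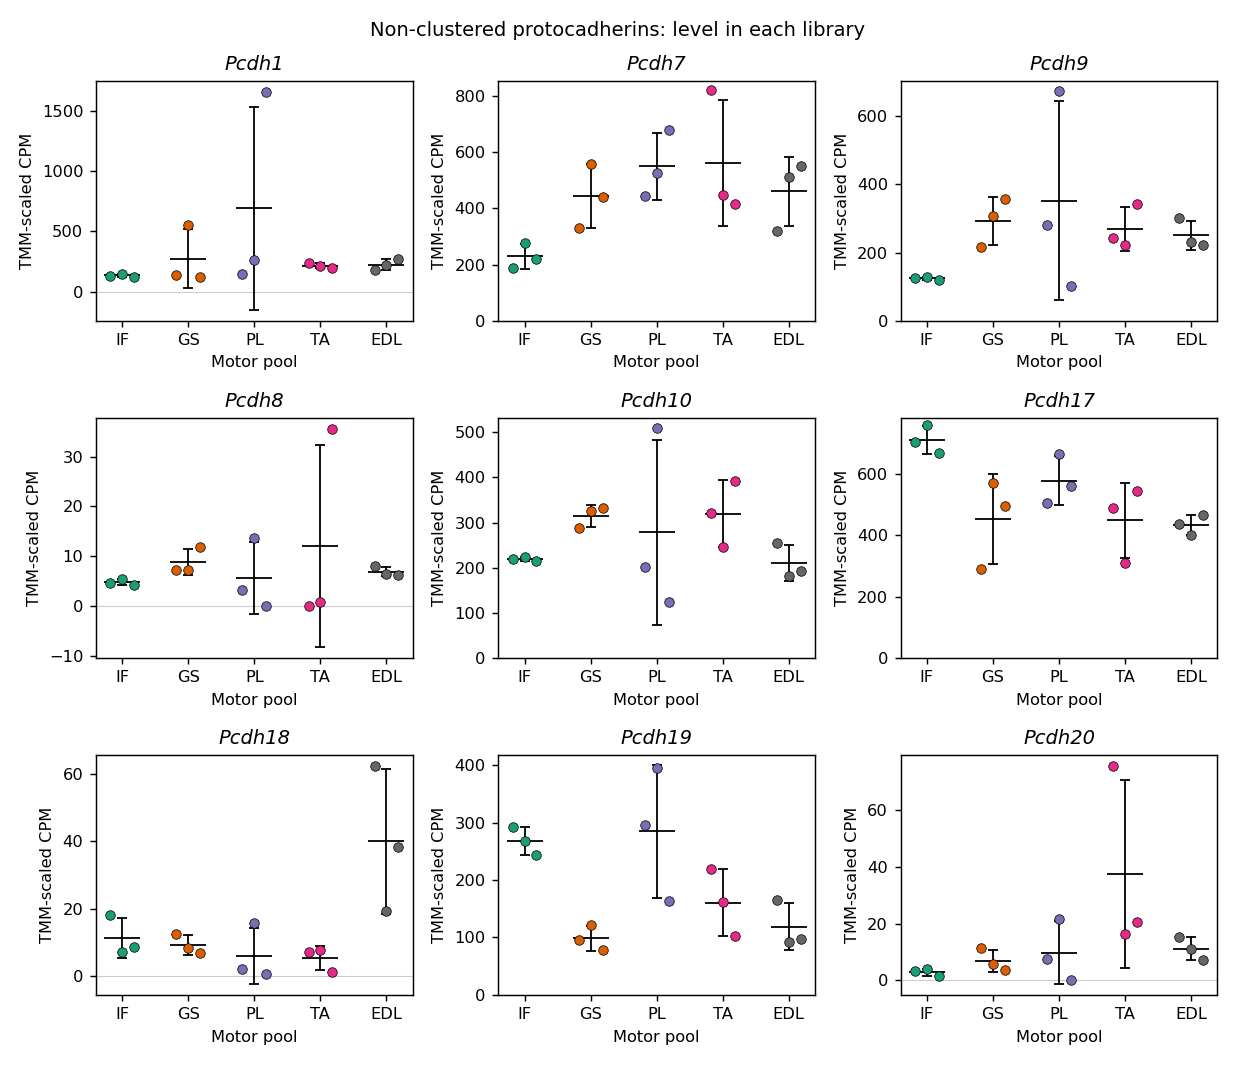
Level of each of the 9 genes in TMM-scaled CPM (vertical axes, linear, a different range for each gene) in the 5 motor pools. Points are libraries, horizontal bars the mean and whiskers the SD of 3 libraries. Pcdh17 in IF lies between 669.5 and 760.3 CPM, above all 12 other libraries, and Pcdh1 reaches 1654 CPM in PL 3 alone.

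The comparison of pools asked whether any of these adhesion genes sets 1 pool apart. Across all 5 pools at once, 0 of 9 passed edgeR's quasi-likelihood F-test with Benjamini-Hochberg adjustment, against 1.31% of all tested genes. An unadjusted p under 0.05 was reached by 3 of 9, against 15.5% of all tested genes. They were Pcdh19 (p 0.00364, adjusted p 0.106), Pcdh7 (p 0.013, adjusted p 0.185) and Pcdh1 (p 0.0188, adjusted p 0.216), and the limma voom test also called 0. DESeq2 called 1, Pcdh19, at an adjusted p of 0.009, against 8.11% of all tested genes. Leaving out PL 3 also brought Pcdh19 past the threshold (adjusted p 0.0361), and leaving out PL 1 brought Pcdh1 past it (adjusted p 0.0371).

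Each pool was then set against the mean of the other 4. Of these 45 comparisons 1 passed, Pcdh1 in PL, and 9 had an unadjusted p under 0.05. The share of all tested genes that passed was 1.1% in IF, 0.126% in GS, 4.87% in PL, 0.418% in TA and 0.0976% in EDL. Of the 9 comparisons 4 were in IF, where 9.38% of all tested genes had an unadjusted p under 0.05. In GS, 1 member had one (5.82% of all tested genes), in PL 2 (22.4%), in TA 1 (12.3%) and in EDL 1 (6.42%). Among the 90 comparisons of pairs of pools, 0 passed. Of all tested genes, the share that passed was 0.628% (IF against TA), 0.202% (IF against EDL), 0.9% (IF against PL), 0.126% (IF against GS), 0.0628% (GS against TA), 0.0697% (GS against EDL), 0.119% (GS against PL), 0.23% (PL against TA), 0.0488% (PL against EDL) and 0.0907% (TA against EDL). An unadjusted p under 0.05 was found in 21 of the 90, against 10.4% over all tested genes and pairs. Of these, 15 were among the 36 comparisons that involve IF, which share the 3 IF libraries, against 9.22% over all tested genes in those pairs. The smallest adjusted p was 0.0874, for Pcdh7 in IF against PL. The voom test also called 0 of 90, and DESeq2 called 5, against 2.91% over all tested genes and pairs.

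**Figure D2:**
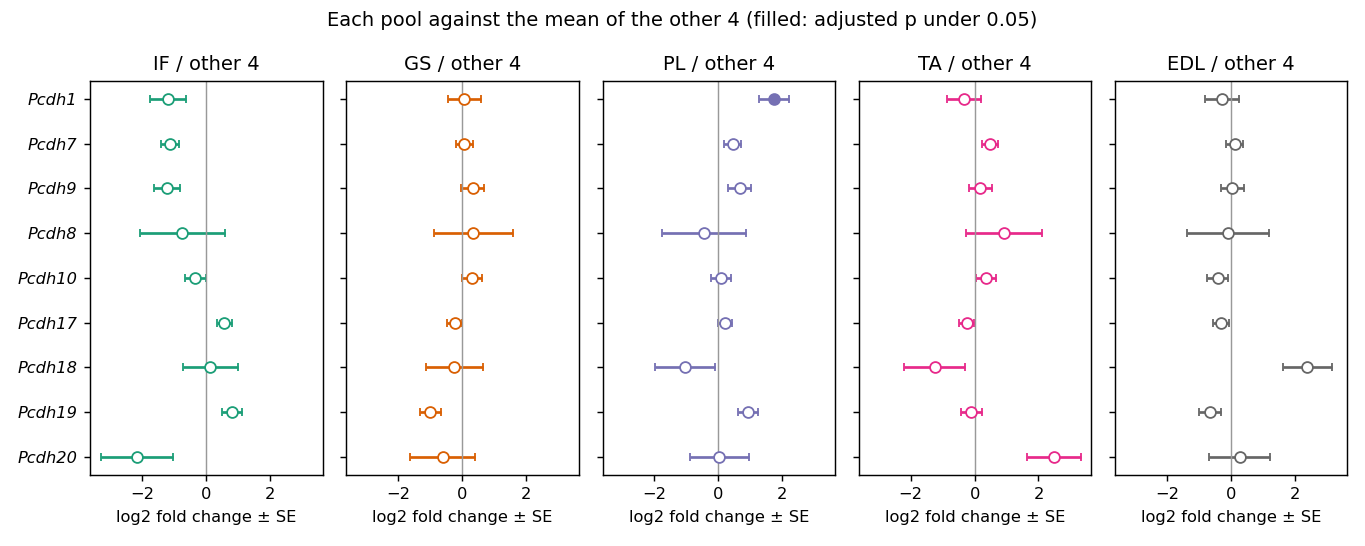
Log2 fold change (horizontal axes) of each gene in 1 pool against the mean of the other 4, with its standard error; the filled point has an adjusted p under 0.05. Only Pcdh1 in PL is filled, at 1.75. In IF the delta-1 genes Pcdh1, Pcdh7 and Pcdh9 lie left of 0, as do Pcdh20 and the delta-2 genes Pcdh8 and Pcdh10. The delta-2 genes Pcdh17, Pcdh18 and Pcdh19 lie right of it.

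The IF pool had more Pcdh17 and Pcdh19 and less Pcdh7 and Pcdh9 than the mean of the other 4 pools. None of these 4 differences passed the test across all genes. Pcdh17, a delta-2 protocadherin known to recruit WAVE to contacts between axons that extend together, lies on the plus strand at chr14:84843370-84936868 in the mouse build mm9. Pcdh17 had 706, 760.3 and 669.5 CPM in the IF libraries. In the other pools it had 290.5, 573 and 498 CPM in GS, 507, 665 and 563 CPM in PL, 491, 310.3 and 547 CPM in TA, and 436, 400.1 and 466 CPM in EDL. All 3 IF libraries lay above all 12 others, as for 1.88% of all tested genes, and IF 3 only just exceeded PL 2. The log2 fold change in IF was 0.58 ± 0.23 (SE) by edgeR's quasi-likelihood test (adjusted p 0.341). Scaling by library totals gave 0.92 ± 0.20 and an adjusted p of 0.0195, under a setting chosen after the data were seen that moved the median of all genes in IF to 0.33. In RPKM, which also lacks TMM scaling, the distance was wider, with 48.2, 47.9 and 44.8 RPKM in IF against 14.4 to 30.3 RPKM in the 12 other libraries. Among the members, Pcdh17 in IF was the one case in which a pool's libraries lay apart in all 3 scalings (TMM-scaled CPM, CPM of library totals and RPKM). CPM of library totals and RPKM both lack TMM scaling, so they are not separate checks. The share of all tested genes that lay apart in all 3 was not computed.

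Pcdh19 is the X-linked delta-2 member whose mutation causes a female-limited epilepsy in humans, and it lies on the minus strand at chrX:130117402-130223533 (mm9). Its IF libraries had 292, 268 and 244 CPM. PL had 297, 395 and 163 CPM, TA 219, 161 and 102 CPM, EDL 166, 92.3 and 98.0 CPM, and GS 94.9, 122 and 77.9 CPM. IF and PL overlapped at the high end, and GS was the lowest pool on average in TMM-scaled CPM, in CPM of library totals and in RPKM. The mean in TMM-scaled CPM was 268 ± 24.3 in IF and 285 ± 116 in PL (SD, n = 3), the highest. By the other 2 scalings, which both lack TMM scaling, IF was highest. In RPKM, IF had 18.4, 15.6 and 15.1, above all others, of which PL 1 at 14.8 RPKM came next. Log2 fold changes were 0.93 ± 0.30 in PL (adjusted p 0.0802), 0.82 ± 0.30 in IF (adjusted p 0.295) and -0.99 ± 0.34 in GS (adjusted p 0.55) by edgeR's quasi-likelihood test. The fold in PL passed under DESeq2 (adjusted p 0.044), which called 1717 of 14340 genes in this comparison. By edgeR's test it also passed without PL 3 (1.20 ± 0.30, adjusted p 0.028), where 541 of 15073 genes were called. The libraries of IF lay above those of GS (1.45 ± 0.41, adjusted p 0.43) and of EDL (1.17 ± 0.41, adjusted p 0.652), as for 13.7% and 13.5% of all tested genes. Those of GS lay below those of PL (-1.53 ± 0.41, adjusted p 0.166), as for 3.86%.

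Pcdh7, a delta-1 member known from Xenopus to guide retinal axons and to bind the protein Set, lies on the plus strand at chr5:58109260-58520591 (mm9). It had 189, 278 and 221 CPM in IF. The other pools had 330.4, 561 and 442 CPM in GS, 445, 527 and 680.2 CPM in PL, 823, 449.7 and 417 CPM in TA, and 319, 512 and 551 CPM in EDL. All 3 IF libraries lay below all 12 others in TMM-scaled CPM, as for 1.22% of all tested genes, and also in RPKM (19.7 to 26.8 RPKM, against 27.7 to 54.9 RPKM), but they overlapped in CPM of library totals. In IF the log2 fold change was -1.13 ± 0.29 with an adjusted p of 0.076 by edgeR's quasi-likelihood test. It was negative under all 24 alternative settings, between -1.26 and -0.79. It passed under 4 of them, namely DESeq2 (adjusted p 0.0254), voom (0.0494), no filter on low counts (0.0311) and without PL 1 (0.0433). Against single pools the fold ran from -0.95 ± 0.34 (GS) to -1.30 ± 0.34 (TA), and in each of the 4 pairs the IF libraries lay below the others, as for 11.7% (TA), 11.7% (EDL), 7.8% (PL) and 10.1% (GS) of all tested genes. Among the other 4 pools no pair had an unadjusted p under 0.05, and the highest mean was in TA or EDL according to the scaling.

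Pcdh9, a delta-1 member needed for recognition memory in mice, lies on the minus strand at chr14:93414731-94287952 (mm9). Its IF libraries had 126, 128 and 118 CPM. GS had 215, 308 and 356 CPM, PL 282, 674 and 102 CPM, TA 242, 221 and 342 CPM, and EDL 300.1, 230.5 and 221 CPM. PL 3 was lower than every IF library, and the 11 remaining libraries were higher than all of them. In IF the log2 fold change was -1.22 ± 0.40 (adjusted p 0.209 by edgeR's quasi-likelihood test), with the same sign under all 24 alternative settings. It passed without PL 3 (-1.33 ± 0.29, adjusted p 0.03). Without PL 2 and PL 3 together the IF fold was -1.12 ± 0.24 (adjusted p 0.0295).

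The 250 bases before the RefSeq start of Pcdh17, Pcdh19 and Pcdh9 are printed as those of genes described above for IF whose windows hold no annotated exon. The window of Pcdh7 lies wholly in an annotated exon, holds no CCAAT and is not printed. They are shown 5′ to 3′ on the gene's own strand in build GRCm38.p6, and capitals mark the CCAAT box, the binding motif of NF-Y, which reads ATTGG on the opposite strand.
Pcdh17, chr14:84443313-84443562, plus strand: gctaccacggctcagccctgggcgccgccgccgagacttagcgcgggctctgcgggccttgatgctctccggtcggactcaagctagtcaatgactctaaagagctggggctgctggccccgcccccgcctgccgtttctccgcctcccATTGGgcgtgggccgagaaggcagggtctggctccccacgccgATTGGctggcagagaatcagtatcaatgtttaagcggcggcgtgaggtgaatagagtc
Pcdh19, chrX:133688994-133689243, minus strand: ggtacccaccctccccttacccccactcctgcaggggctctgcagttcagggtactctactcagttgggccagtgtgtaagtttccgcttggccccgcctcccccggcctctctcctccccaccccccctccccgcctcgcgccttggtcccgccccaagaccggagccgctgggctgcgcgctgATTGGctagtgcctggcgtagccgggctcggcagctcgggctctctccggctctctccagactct
Pcdh9, chr14:93890680-93890929, minus strand: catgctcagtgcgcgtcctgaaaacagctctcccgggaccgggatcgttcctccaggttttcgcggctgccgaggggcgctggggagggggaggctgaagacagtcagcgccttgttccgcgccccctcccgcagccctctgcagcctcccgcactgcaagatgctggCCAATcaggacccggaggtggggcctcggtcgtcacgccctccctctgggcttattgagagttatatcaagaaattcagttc
The stretches hold 64.8%, 69.2% and 63.6% G and C, against a median of 52.4% over 32817 such windows of mouse genes. The motif begins 101 and 58 bases before the start of Pcdh17, 65 before that of Pcdh19 and 82 before that of Pcdh9. On either strand CCAAT occurred in the windows of 7 of the 8 members with one, all but Pcdh7, and in 33.8% of all windows. GGGCGG, the core of the GC box, occurred in 4 of 8 and in 32.7% of all windows. TATAAA occurred in 1 of 8, that of Pcdh8, against 12.4%, and the homeodomain core TAATTA in 0 of 8, against 4.85%. The motifs were picked after the sequences had been seen, and a match is a description of these letters and not a binding site.

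Shares and ratios within a library do not depend on how libraries are scaled to each other, and they are given as descriptions, chosen after the levels had been seen. Pcdh17 made up 35.4 ± 0.20% of the summed RPKM of the 9 genes in IF (SD, n = 3), and 14.0% to 19.8% in the 12 other libraries. Pcdh19 made up 12.3 ± 1.15% in IF, and at most 10.7% elsewhere. Pcdh7 made up 17.4 ± 2.61% in IF, 26.1 ± 0.39% in GS, 23.7 ± 4.70% in PL, 30.6 ± 8.04% in TA and 28.9 ± 7.66% in EDL. The share of Pcdh9 was 15.8 ± 0.57% in IF and between 18.9% and 39.1% in the others, except PL 3 with 6.57%. The shares of a library sum to 100%, so a higher share of 1 gene lowers the rest.

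**Figure D3:**
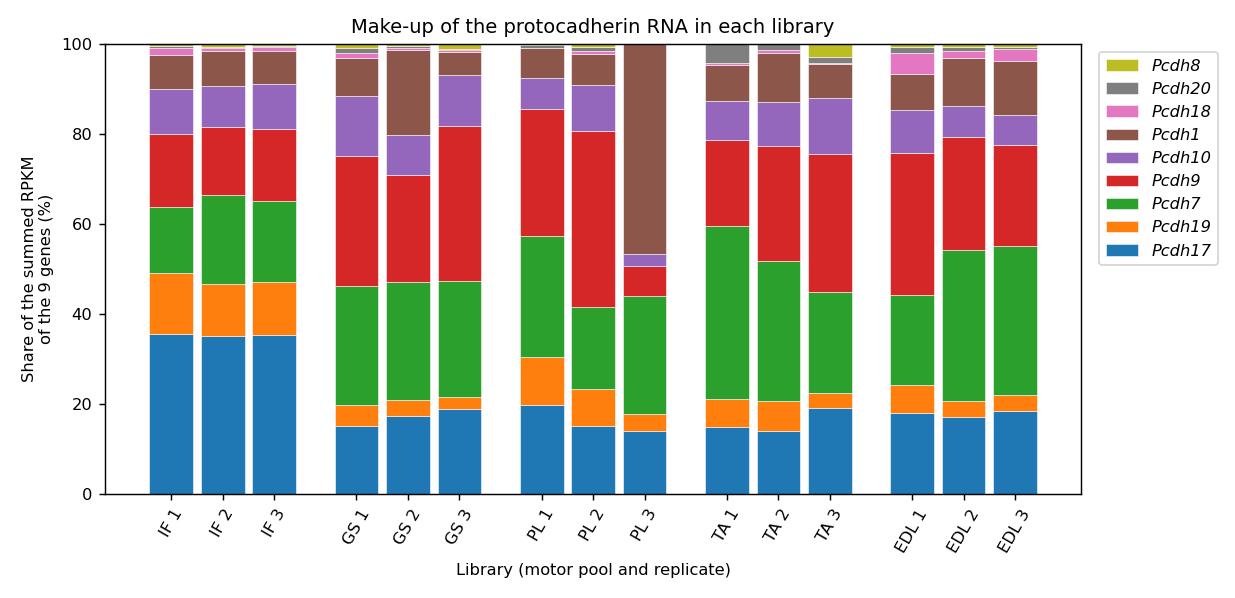
Share of each gene in the summed RPKM of the 9 (vertical axis, %), stacked, 1 bar per library. The Pcdh17 share at the base of the bars is 35.2% to 35.6% in IF and 14.0% to 19.8% in the other libraries, and Pcdh1 takes 46.6% of PL 3.

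Pcdh17 was 2.07 ± 0.34 times Pcdh7 in RPKM in IF (SD, n = 3), with 2.44, 1.78 and 1.97 in the libraries, and 0.389 to 0.891 times in the 12 others. Pcdh19 was 0.781 ± 0.051 times Pcdh9 in IF and 0.0789 to 0.576 times in the others, with PL 3 the closest. Pcdh17 was 2.20 to 2.33 times Pcdh9 in IF, and PL 3 with 2.15 was again the closest of the others. By mean RPKM Pcdh17 was thus the first of the family in IF, at 47.0 ± 1.87 RPKM, ahead of Pcdh7 at 23.1 ± 3.57 RPKM. In GS and PL the first was Pcdh9 and in TA and EDL Pcdh7, each ahead of the next by less than its own SD. Interneuron transcripts moved with the IF group: 6 markers summed to 34.7 to 69.4 CPM in IF and 120.1 to 374 CPM in the 12 other libraries. The 8 oligodendrocyte markers summed to 136 to 160.4 CPM in IF and 147 to 1730 CPM in the others, where GS 2 alone overlapped IF and PL 2 was highest. Astrocyte markers summed to 855 to 1145 CPM in IF and 956 to 3142 CPM in the others, with GS 2 again inside the IF range. Over the 15 libraries, which share pools and scaling, the Pearson correlation was 0.74 for Pcdh7 with interneuron markers, 0.61 for Pcdh7 with astrocyte markers and 0.62 for Pcdh9 with oligodendrocyte markers. For the last pair the Spearman correlation was 0.33. Pcdh9 had a Pearson correlation of -0.58 with microglia markers. With motor neuron markers that of Pcdh17 was 0.495 and that of Pcdh19 was 0.60. The part of any of these cells in the IF values was not tested.

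**Figure D4:**
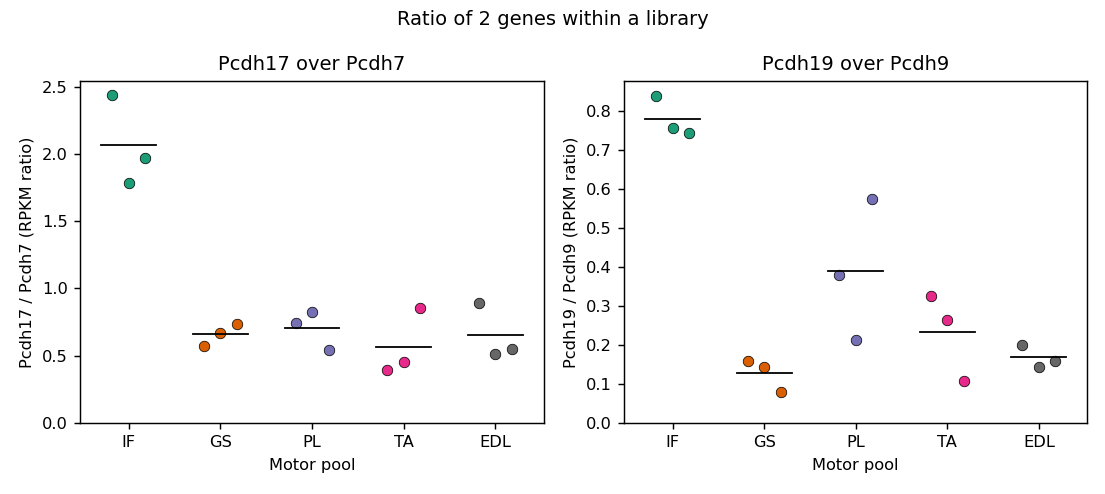
Ratio of 2 genes in RPKM within each library (vertical axes, linear from 0), Pcdh17 over Pcdh7 on the left and Pcdh19 over Pcdh9 on the right, by motor pool. Points are libraries and bars the means of 3; the IF libraries lie at 1.78 to 2.44 and 0.745 to 0.840, above all others.

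Pcdh1, a delta-1 protocadherin known from airway epithelium and as a receptor of New World hantaviruses, passed in PL, where PL 3 held 7495 of the 9682 reads. It lies on the minus strand at chr18:38345569-38371708 (mm9). PL 1, PL 2 and PL 3 had 147, 264 and 1654 CPM. GS had 141, 552 and 119 CPM, TA 236, 213 and 197 CPM, EDL 176, 222 and 268 CPM, and IF 132, 148 and 124 CPM. PL 1 and PL 2 lay inside the range of the other pools, PL 3 was far above the next library, GS 2, and the PL libraries did not lie apart from the rest. The PL mean was 688 ± 838 CPM (SD, n = 3). The log2 fold change in PL was 1.75 ± 0.47 with an adjusted p of 0.0381 by edgeR's quasi-likelihood test, in a comparison where 4.5% of all tested genes were called higher.

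Without PL 3 the fold was 0.01 ± 0.42 (adjusted p 1), and without both PL 2 and PL 3 it was -0.47 ± 0.57 (adjusted p 1). The call was also lost, at 1.62 to 1.75 and adjusted p-values of 0.0552 to 0.071, without any 1 of IF 1, IF 2, IF 3, GS 1, GS 3, TA 2, TA 3, EDL 1, EDL 2 and EDL 3. It was lost under voom (0.85 ± 0.50, adjusted p 0.329), under upper quartile scaling (1.49 ± 0.45, adjusted p 0.0865) and with library totals (1.19 ± 0.42, adjusted p 0.193). The call held under 8 of the 24 alternative settings, all of which kept PL 3. DESeq2 was among them (adjusted p 0.0225) and called 1717 of 14340 genes in this comparison. Within pools, Pcdh1 had an SD of 0.99 on the log2 scale, above that of 97.8% of the 1000 genes nearest to it in level, whose median was 0.50. For Pcdh17 the SD was 0.32, above that of 16.4% of its neighbours. PL 3 also held the highest summed level of microglia markers, 126 CPM over 5 genes, but 4 of the 5 were at 0 there. Its sum of interneuron markers was the highest too (374 CPM over 6 genes, of which Gad2 gave 364). The part of such cells in the Pcdh1 value was not tested. In IF, Pcdh1 was lowest under every scaling (134 ± 12.1 CPM, log2 fold change -1.19, adjusted p 0.533 by edgeR's quasi-likelihood test).

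**Figure D5:**
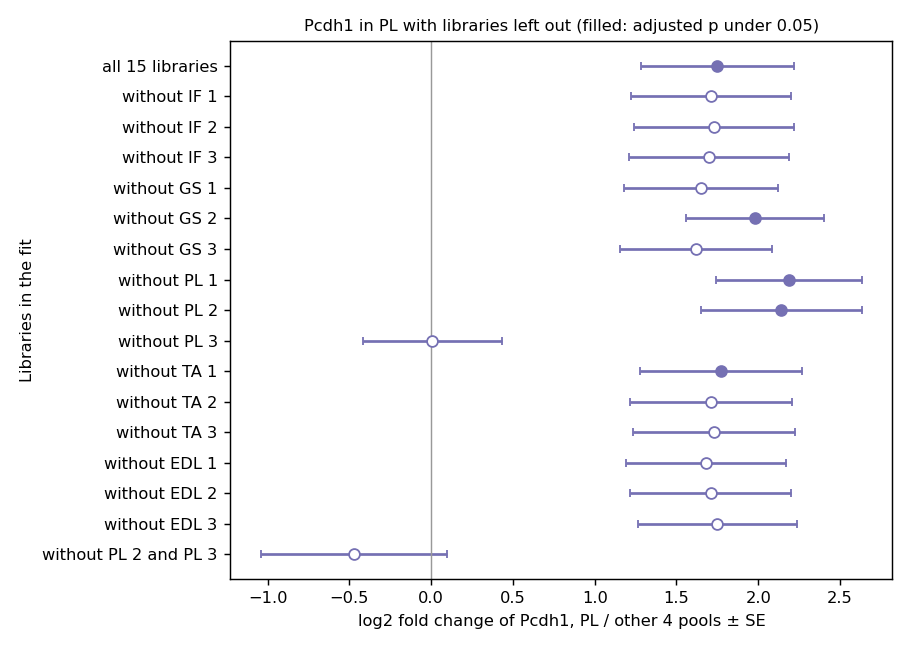
Log2 fold change of Pcdh1 in PL against the mean of the other 4 pools (horizontal axis, with SE) in the fit of all 15 libraries and with libraries left out; filled points have an adjusted p under 0.05. The fold is 1.62 or more in every fit that holds PL 3 and 0.01 or less in both fits without it.

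Pcdh10, a delta-2 member that brings the WAVE subunit Nckap1 to cell contacts and is needed for striatal axon growth, had the smallest ratio of pool means in TMM-scaled CPM. It lies on the plus strand at chr3:45182320-45238489 (mm9). The highest pool mean was 1.52 times the lowest, 319.7 ± 73.6 CPM in TA and 209.7 ± 39.3 CPM in EDL, and no comparison had an unadjusted p under 0.05. IF had 220.1, 223 and 214 CPM, GS 288, 324 and 333 CPM, PL 201, 509.8 and 123 CPM. The PL libraries spread over the range of all the others, and the order of the pools changed with the scaling, GS being first in RPKM and TA in TMM-scaled CPM.

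Of the 3 scarce members, Pcdh20 and Pcdh18 had the largest ratios of the highest to the lowest pool mean, 13.1 and 7.52, on few reads. Pcdh18, a delta-2 member whose product binds Dab1, the adaptor of the reelin pathway, lies on the minus strand at chr3:49547218-49561239 (mm9). EDL had 62.3, 19.4 and 38.3 CPM, from 538, 171 and 305 reads. IF had 18.2, 7.25 and 8.68 CPM, GS 12.6, 8.34 and 6.69, PL 1.95, 15.6 and 0.441, and TA 7.12, 7.58 and 1.23. All 3 EDL libraries lay above all 12 others in TMM-scaled CPM, as for 0.418% of all tested genes, but EDL 2 was only just above IF 1, and they overlapped in RPKM and in CPM of library totals. In EDL the log2 fold change was 2.40 ± 0.77 with an adjusted p of 0.407 by edgeR's quasi-likelihood test, positive under all 24 alternative settings and past the threshold in 0. Fibroblast markers were also high in EDL: 6 genes summed to 101 to 251 CPM in EDL and 6.71 to 108 CPM elsewhere, where TA 1 overlapped EDL. Within EDL the order was opposite. EDL 1 had the most Pcdh18 and the lowest sum (101 CPM), and EDL 2 had the least Pcdh18 and the highest sum (251 CPM). Of the markers, Dcn had 70.9 to 195 CPM in EDL and at most 10.2 CPM elsewhere, while Col1a1 was at 0 to 1.58 CPM in EDL. Over the 15 libraries, which share the EDL group, Pcdh18 and the fibroblast sum had a Pearson correlation of 0.03, and the part of such cells was not tested.

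Pcdh20, found in subsets of olfactory sensory neurons, lies on the minus strand at chr14:88864554-88871204 (mm9). TA had 75.6, 16.2 and 20.6 CPM, from 446, 90 and 117 reads. EDL had 15.2, 10.9 and 7.15 CPM, PL 7.37, 21.7 and 0, GS 11.3, 5.62 and 3.43, and IF 3.36, 3.75 and 1.45. TA 1 was far above the rest, TA 2 and TA 3 lay between EDL 1 and PL 2, and the 0 in PL 3 allows up to 0.662 CPM (3 counts, for counting error only). In TA the log2 fold change was 2.47 ± 0.85 with an adjusted p of 0.236 by edgeR's quasi-likelihood test and was positive under all 24 alternative settings, passing in 0. IF against TA, at -3.71 ± 1.36 (adjusted p 0.286), passed under DESeq2 (adjusted p 0.0324) and without PL 2 and PL 3 (adjusted p 0.0337). Astrocyte markers summed to 1728 to 3142 CPM in TA and 855 to 2312 CPM elsewhere, and their part was not tested.

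Pcdh8, a delta-2 member that in rat hippocampal neurons is induced by synaptic activity and binds the kinase Taok2, lies on the minus strand at chr14:80166587-80171120 (mm9). TA had 0, 0.903 and 35.5 CPM, the last from 202 reads, and so both the highest of the 15 libraries and, with PL 3, the lowest. The others had 4.68, 5.50 and 4.34 CPM in IF, 7.31, 7.32 and 11.9 in GS, 7.99, 6.56 and 6.27 in EDL, and 3.36, 13.7 and 0 in PL. The counts of 0 in TA 1 and PL 3 allow up to 0.509 and 0.662 CPM (3 counts). No comparison of Pcdh8 had an unadjusted p under 0.05, with an SD within pools of 2.05 on the log2 scale.

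Across the 15 libraries some members varied together, given here as a description of points that share pools and scaling. The highest Pearson correlations of log2 CPM were 0.79 for Pcdh9 with Pcdh10, 0.63 for Pcdh10 with Pcdh20, 0.63 for Pcdh9 with Pcdh20, 0.63 for Pcdh1 with Pcdh7 and 0.58 for Pcdh17 with Pcdh19. The lowest was -0.42, for Pcdh1 with Pcdh8. Pcdh17 and Pcdh19 were correlated over the same libraries in which both were described above as higher in IF. Of the delta-1 genes, Pcdh1 and Pcdh7 were correlated, but Pcdh1 with Pcdh9 had -0.14 and Pcdh7 with Pcdh9 had 0.38. Pcdh9 and Pcdh10, both high in PL 2 and low in PL 3, crossed the subfamilies.

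The genes outside the family whose levels were most like those of the 3 members with the smallest p across pools were found by Pearson correlation over the 15 libraries. For Pcdh19 they were Hnmt, which inactivates histamine (0.88), the adhesion gene Cntn1 (0.86) and Ankrd12 (0.85). Cntn1 had 1148 ± 49.1 CPM in IF and 1115 ± 315 CPM in PL, and 659.7 ± 91.6 CPM in GS, which was its lowest pool. Hnmt and Ankrd12 had their highest means in PL, at 82.6 and 159 CPM, and their lowest in GS (11.8 CPM) and EDL (70.7 CPM). For Pcdh7 they included the citrate lyase gene Acly (0.87) and the nuclear pore gene Pom121 (0.87). Acly had 770.3 ± 59.6 CPM in IF and between 1561 ± 479 CPM (GS) and 2094 ± 566 CPM (PL) in the others, so that IF had the lowest mean, as for Pcdh7. For Pcdh1 they were Dnm1 (0.93), Smarca4 (0.93) and Adarb1 (0.93), and each of these had its largest mean and SD in PL, with Smarca4 at 186 ± 24.2 CPM in IF and 626 ± 603 CPM in PL.

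Among related genes and partners, edgeR called 2 genes, both in PL against the other 4, where 4.87% of all tested genes were called. Of 3 other protocadherins, 2 were tested and 1 was called in 1 comparison. This was Pcdh11x, an X-linked delta-1 gene, with 266, 118 and 389 CPM in PL and 57.7 to 205 CPM in the 12 others, which overlapped PL 2. Its log2 fold change in PL was 1.22 ± 0.32 (adjusted p 0.0358 by edgeR's quasi-likelihood test). The call was lost without PL 3 (0.79 ± 0.35, adjusted p 0.253). It was also lost, at 1.15 to 1.23, without any 1 of 11 other libraries, all but PL 1, PL 2 and TA 3, and without PL 2 and PL 3 together (1.26 ± 0.38, adjusted p 0.38). Voom (1.20, adjusted p 0.065), upper quartile scaling (1.04, adjusted p 0.0938) and library totals (0.86, adjusted p 0.23) did not call it. Pcdh12, an endothelial gene, did not pass the filter and reached its highest level, 17.6 CPM, in PL 3. Pcdh15, a tip-link gene of hair cells, was not called, with a log2 fold change of 1.34 ± 0.50 in PL (adjusted p 0.124) and of -1.59 ± 0.61 in EDL (adjusted p 0.594).

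Of 9 genes of the WAVE complex, 8 were tested and 1 was called in 1 comparison. Abi1, a scaffold subunit, had 86.3, 177 and 140.5 CPM in PL and 27.0 to 71.0 CPM in the 12 others, so that PL lay apart, as for 0.621% of all tested genes. The log2 fold change was 1.56 ± 0.36 (adjusted p 0.0171 by edgeR's quasi-likelihood test). The call was lost without IF 2 (adjusted p 0.0507), without PL 2 (1.31, adjusted p 0.0684), without both PL 2 and PL 3 (0.92 ± 0.49, adjusted p 0.95) with upper quartile scaling (1.34, adjusted p 0.058) and with library totals (1.11, adjusted p 0.18). The median log2 fold change of the 8 was -0.32 in IF, against 0.02 over all tested genes, 0.05 in GS (0.04), 0.18 in PL (-0.06), 0.35 in TA (0.06) and -0.29 in EDL (0.06). Of 6 other partners, all tested, 0 were called by edgeR in any of the 16 tests. Those with the smallest p across the pools were Dab1 (p 0.0924), at 874 CPM in PL 3 and 102.5 to 279 CPM in the 14 other libraries, and Taok2 (p 0.137).

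Each list that the authors deposited holds the genes that 1 pool had above another by DESeq. The authors' deposited tables comprise 16 lists with 541 entries and adjusted p-values up to 0.0382 (a ratio and a p-value for each gene), and 0 of the 9 members are among these entries. The lists used here cover 8 of the 10 pairs of pools, all but GS with PL and GS with EDL, and name 321 genes, 0.872% of those in the table. Of the table's genes 16357 had no read in any library, so the share among genes with reads is larger. All 9 members passed the filter on low counts.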

How the data were processed

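The deposited table holds raw counts of reads for each gene, and RPKM values that the authors derived from them. Per the submitters' processing notes, alignment to mm9 was done with Bowtie 0.12.9 and pools were compared with DESeq. How reads were counted, and on which gene model, is not given in the sources. In the authors' deposited lists each gene has a ratio (fold) between 2 pools and p-values. The deposited columns held 16 cells below 0 in 4 genes, none a member, which were left out. Per the labels' protocols, cDNA came from the Ovation RNA-Seq System V2 and Nextera, which does not mark strand, so reads of overlapping antisense genes cannot be told apart.

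From the counts, 14340 genes passed filterByExpr and were fitted with edgeR 4.0.16 (glmQLFit and glmQLFTest, R 4.3.3), TMM scaling, all 15 libraries and a coefficient for each pool, so that pools share 1 estimate of the spread (common dispersion 0.789). Benjamini-Hochberg adjustment ran over all genes of a comparison, with a threshold of 0.05. A fold against the other 4 pools is the log2 of the pool's fitted mean level less the average of the other 4 pools' log2 means. Logs are taken after libraries of a pool are averaged, so 1 high library can raise a fold. Under voom the logs of single libraries are averaged. Errors of folds are standard errors. Replicate libraries were compared, and none agreed within counting noise. IF pairs came closest, at a chi-square per degree of freedom of 11.7 to 16.3, against 45.9 to 250 for replicates outside IF. Alternatives were DESeq2 1.42.0, limma 3.58.1 (voom), other scalings and filters, libraries left out and a replicate block. The fit was tested on simulated data. Promoter windows came from RefSeq (GRCm38.p6), matched by symbol. Chromosome 18 was left out for members and for all windows, so 8 of 9 members had a window and Pcdh1 had none. Named were all members, called genes of 3 lists or else the 2 with the smallest p, and 3 genes most like each of 3 members, of which 1 is not reported here. The members, lists and markers were chosen with earlier results of these data known. Slc18a3 and Brk1 were not analysed here.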

Additional observations from a re-analysis of the deposited data

How the results depend on the processing

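The fit was repeated under 24 settings, 15 of which left out 1 library. Of 1056 values compared, 955 were unchanged. For a fold this means the same direction and side of the threshold, for a p-value across the pools the same side, and for a count of members called a like count. A like count can be of another member. For a pool against the other 4, the 1 call was Pcdh1 in PL in the full fit, Pcdh7 in IF under voom and Pcdh17 in IF with library totals. Folds entered the 1056 values only where their unadjusted p was under 0.05 in the full fit. Among folds with an unadjusted p under 0.05, that of Pcdh1 reversed in 5 cases: without PL 3 it was -0.0695 in PL against TA (1.68 in the full fit) and -0.115 in PL against EDL (1.63), where the range with 1 library left out reached 2.13 and 2.07 (without PL 1). Without PL 2 and PL 3 these were -0.53 and -0.59, and PL against the other 4 was -0.47. Of all 135 folds of members, 62 changed sign in at least 1 setting, and Pcdh20 in PL kept its sign in 11 of 24. The number of members called across all 5 pools (0 in the full fit) was 1 by DESeq2 (8.11% of all genes tested) and 2 with no filter on low counts (6.97%), and 0 to 1 with 1 library left out (1 without PL 1, 8.08%, and without PL 3, 1.88%). For a pool against the other 4 (1) it was 0 with upper quartile scaling (0.835%) and with the replicate block (0.397%), 3 by DESeq2 (3.5%), 2 with no filter (2.84%), and 0 to 3 with 1 library left out (0 without any of IF 1 to 3, GS 1, GS 3, TA 2, TA 3 and EDL 1 to 3, 2 without PL 1, 5.14%, and 3 without PL 3, 1.16%). For pairs (0) it was 5 by DESeq2 (2.91%), 5 with no filter (1.17%), 3 without PL 2 and PL 3 (0.492%), and 0 to 5 with 1 library left out (5 without PL 1, 4.96%, and 1 without PL 3, 0.383%). The cause was not tested; without PL 2 and PL 3 the lone PL library is assumed to vary like those of other pools. The median of all genes was 0.33 in IF and -0.37 in PL with library totals and 0.38 and -0.52 under voom, against 0.02 and -0.06 in the full fit.

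Replicate numbers did not pair the libraries: same-numbered libraries of different pools had correlations of -0.07 to 0.13 in their deviations from pool means, 1 of 30 over 0.1, and 6 of 15 libraries correlated best with their own number. With the replicate block the fold of Pcdh1 in PL was 1.51 (adjusted p 0.19, edgeR's quasi-likelihood test), that of Abi1 1.53 (adjusted p 0.0604) and that of Pcdh11x 1.16 (adjusted p 0.106). Depth limits Pcdh8, Pcdh18 and Pcdh20, with 744, 1647 and 1277 reads over all libraries.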
